A study of Homo sapiens with 6 samples.

Results

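MHC class II molecules are surface proteins that carry peptides from the endosomal pathway to CD4+ T cells. The genes described here are CIITA, the invariant chain gene CD74, the antigen-presenting chain genes HLA-DRA, HLA-DRB1, HLA-DPA1 and HLA-DPB1, and the peptide-loading genes HLA-DMA and HLA-DMB. They were chosen by symbol, and all 8 were found among the 56478 gene symbols of the count table. RNA came from BT20, an established cell line from a human breast carcinoma of the triple negative kind, kept in medium with serum and given no treatment. The 3 shControl libraries carry a control hairpin in a knockdown vector (pLK0), and the 3 shCK5-22 libraries carry a hairpin against cytokeratin 5, the product of KRT5, in the same vector. The labels give 1 hairpin per arm, so an effect of losing KRT5 and an effect of this hairpin's sequence cannot be told apart, and they do not say whether the replicates were cultured separately, so a p-value here covers the spread among these libraries and no more.

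Class II transcription works through a scaffold. CIITA does not bind DNA itself; it is recruited to class II promoters by RFX, CREB-family and NF-Y factors that sit on the neighbouring X, X2 and Y boxes, and it is induced by interferon gamma in cells that are not professional antigen-presenting cells. The invariant chain CD74 fills the groove of new class II dimers and leads them to endosomes, where proteases trim it to a short peptide called CLIP, and the HLA-DM dimer (HLA-DMA with HLA-DMB) exchanges CLIP for other peptides. CD74 is also a receptor for the cytokine MIF. Epithelial cells and carcinomas can express parts of this set.

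Libraries held between 47703937 and 65541734 counts, and 18008 genes passed a filter on low counts and were tested. KRT5 stood at 231 to 247 CPM (counts divided by the library's size in units of 1000000, after scaling for composition) in shControl and at no more than 24.1 CPM in shCK5-22, so the target was lower in all 3 knockdown libraries. The 7 epithelial markers were all expressed, and 4 of them (CDH1, KRT7, KRT19 and EGFR) fell (without shCK5-22 replicate 1, 4 fell and 2, KRT8 and KRT18, rose), with summed levels of 11290 to 11750 CPM in shControl and 10030 to 10620 CPM in shCK5-22; the progesterone receptor gene PGR had 10 and 6 counts in all, while the estrogen receptor gene ESR1 was read at 14.5 and 11.5 CPM. Replicate 1 of shCK5-22 stood apart from the other libraries of its group, since chi-square divided by its degrees of freedom was 33.7 and 19.8 in pairs with replicates 2 and 3, and 5.08 between those 2 libraries; shControl pairs lay between 3.47 and 4.88. Values without that library are therefore given beside the results. Low counts were mostly even numbers, 87.5% to 89.0% of those between 4 and 19 in a library, and all 24 counts of HLA-DRA, HLA-DPA1, HLA-DPB1 and HLA-DMB were even, so what 1 count stands for is uncertain at low values; the cause was not tested.

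RefSeq promoter windows (GRCh38.p14; 250 bases before to 50 after the annotated start) were found for 6 of the 8 genes; CIITA and HLA-DRA had no entry. Those of CD74, whose rise was measured with the smallest error, of HLA-DMA, HLA-DMB and of HLA-DRB1 are printed so that exact matches to short letters of the X, X2 and Y boxes can be seen. A box that departs from these letters is not marked, so an unmarked window is not read as lacking a box. No link between the letters and transcript levels was tested. Capitals mark every match, on either strand, to ATTGG (the core of the Y box, CCAAT on the other strand), AGCAAC (a core of the X box), TGACG (part of a CRE, as in the X2 box), TTCNNNGAA (a GAS element) and ACTGATGATG. That last run was not a chosen motif: it is the longest stretch shared by the HLA-DRB1, HLA-DMA and HLA-DMB windows, found by comparing them.
CD74: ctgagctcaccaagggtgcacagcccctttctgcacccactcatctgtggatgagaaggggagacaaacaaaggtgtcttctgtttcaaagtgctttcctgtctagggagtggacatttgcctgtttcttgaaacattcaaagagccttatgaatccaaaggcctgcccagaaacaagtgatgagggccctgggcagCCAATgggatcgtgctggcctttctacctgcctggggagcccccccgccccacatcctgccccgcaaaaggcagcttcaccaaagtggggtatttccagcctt
HLA-DMA: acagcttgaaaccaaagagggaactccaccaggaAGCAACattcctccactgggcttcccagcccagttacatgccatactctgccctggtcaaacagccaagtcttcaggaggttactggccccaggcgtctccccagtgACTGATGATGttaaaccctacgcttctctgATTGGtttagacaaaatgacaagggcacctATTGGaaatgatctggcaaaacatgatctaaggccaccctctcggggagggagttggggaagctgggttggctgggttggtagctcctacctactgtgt
HLA-DMB: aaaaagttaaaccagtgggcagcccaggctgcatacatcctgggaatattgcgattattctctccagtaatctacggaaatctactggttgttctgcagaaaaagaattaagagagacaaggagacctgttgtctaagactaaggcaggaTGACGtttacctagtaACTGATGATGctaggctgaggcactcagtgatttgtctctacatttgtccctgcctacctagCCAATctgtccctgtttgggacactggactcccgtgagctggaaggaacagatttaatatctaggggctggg
HLA-DRB1: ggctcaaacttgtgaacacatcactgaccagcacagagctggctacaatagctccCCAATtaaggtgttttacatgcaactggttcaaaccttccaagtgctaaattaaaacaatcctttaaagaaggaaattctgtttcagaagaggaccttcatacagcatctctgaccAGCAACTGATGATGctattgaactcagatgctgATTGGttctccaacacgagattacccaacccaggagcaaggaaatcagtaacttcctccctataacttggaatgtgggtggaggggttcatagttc
The windows are chr5:150412861-150413160 for CD74, chr6:32953048-32953347 for HLA-DMA, chr6:32940979-32941278 for HLA-DMB and chr6:32589799-32590098 for HLA-DRB1, all on the minus strand and written in the direction of transcription.

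In the CD74 window only ATTGG was matched, as CCAAT at bases 198 to 202 counted from the window's first base. HLA-DRB1 held AGCAAC at bases 172 to 177, overlapping the shared run at 176 to 185, and ATTGG at 205 to 209, with a further CCAAT at 56 to 60. In HLA-DMA the shared run lay at bases 142 to 151 and ATTGG at 172 to 176 and 202 to 206, with AGCAAC far upstream at 35 to 40. HLA-DMB had TGACG at 151 to 155, the run at 167 to 176 and CCAAT at 229 to 233. ATTGG was present in 34.6% of the 35116 promoter windows of the table, TGACG in 24.6%, AGCAAC in 12.8% and TTCNNNGAA in 7.66%, whereas ACTGATGATG was present in 30 windows (0.0854%). The shared run has 10 letters, more than any chosen motif, and was found by comparing the HLA-DRB1, HLA-DMA and HLA-DMB windows. Its low share therefore cannot be set against theirs, and whether it is rarer than other runs of its length was not tested. A match is a description of letters, and binding was not measured.

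CD74 and CIITA were higher in the knockdown libraries, HLA-DMA was lower, and the 4 antigen-presenting chain genes stayed at the edge of detection in both groups. Of the 8 genes, 2 rose, 1 fell, 2 were tested and did not pass, and 3 (HLA-DPA1, HLA-DPB1 and HLA-DMB) lay below the filter on low counts. The test was edgeR's quasi-likelihood test with Benjamini-Hochberg adjustment over all genes and a threshold of 0.05. Over all 18008 genes tested, 17.4% were higher and 16.8% lower by that rule, 34.2% in either direction. With 5 genes tested, nothing about the set is read from these shares, and each gene is read on its own values. These are bulk libraries, so more cells with a transcript and more transcript per cell cannot be told apart.

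**Figure D1:**
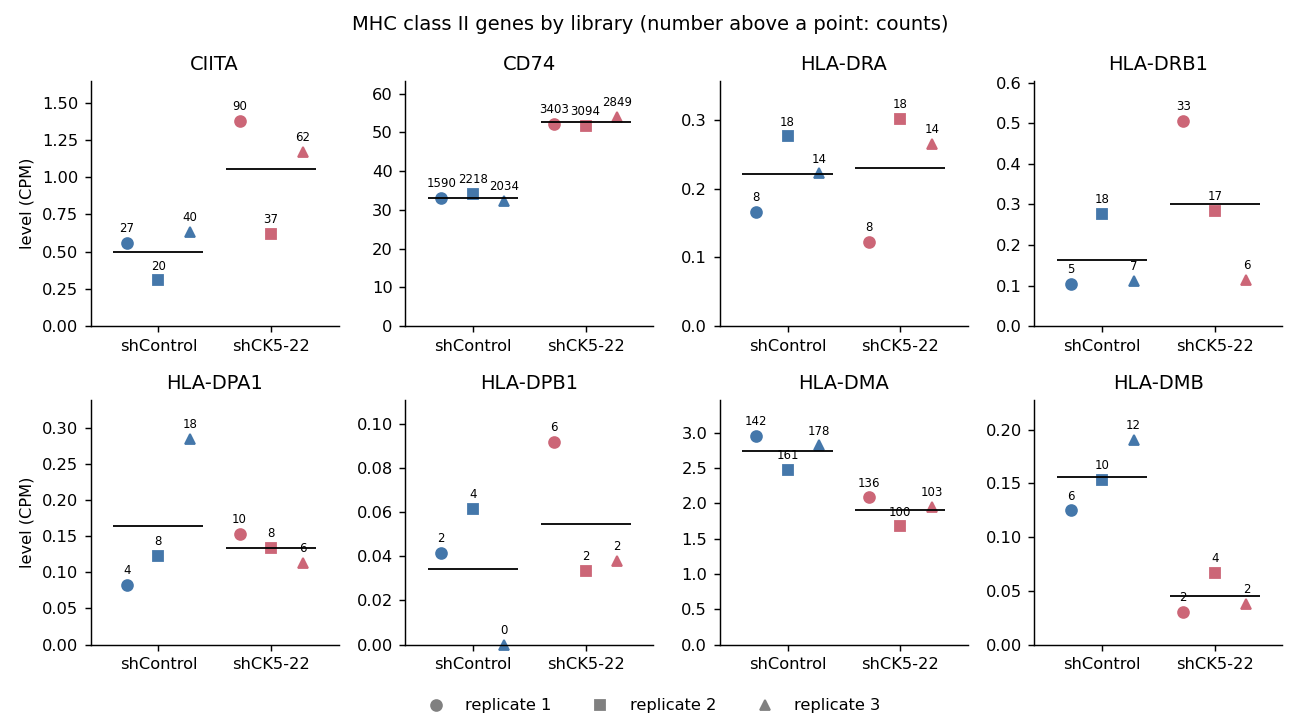
Level in CPM (vertical axes, each from 0) of the 8 genes in the 3 shControl (blue) and 3 shCK5-22 (red) libraries; black lines are group means, symbols are replicate numbers and the number at each point is the count. CD74 separates the groups at 32.2 to 34.0 against 51.7 to 53.9 CPM, HLA-DMA and HLA-DMB are lower in every shCK5-22 library, and HLA-DRA has the counts 8, 18 and 14 in both groups.

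CIITA, the class II transactivator (ENSG00000179583.19, chromosome 16, 10866222 to 10943021, plus strand, GRCh38), was a low transcript in these cells. Replicates 1 to 3 gave 27, 20 and 40 counts with the control hairpin and 90, 37 and 62 with the KRT5 hairpin, which correspond to 0.562, 0.307 and 0.634 CPM and to 1.38, 0.619 and 1.17 CPM. Replicate 2 was the lowest library of each group, and the groups overlapped slightly, because shCK5-22 replicate 2 lay below shControl replicate 3. The mean rose from 0.501 ± 0.172 to 1.06 ± 0.393 CPM (SD, n = 3 each), 2.11-fold (log2 fold change 1.09, SE 0.327, edgeR adjusted p = 0.0138). That call rests on single libraries: the adjusted p was 0.0726 without shCK5-22 replicate 1, with a log2 fold change of 0.84, 0.0782 without shControl replicate 2 and 0.0578 without shCK5-22 replicate 3, within a range of 0.00102 to 0.0782 over the alternatives. The direction was the same in all 15 alternatives that tested it. In addition, 2416 bases of CIITA exon (11.6%) are shared with DEXI, a gene on the opposite strand, 2378 bases (11.5%) are shared with AC133065.3 on the same strand, and the authors' use of strand is not given. Of CIITA's 50-base windows, 22.4% occur in transcripts of other genes. DEXI stood at 4.48 ± 0.298 CPM in shControl, 5.26 ± 0.477 CPM in shCK5-22, a difference that did not pass (log2 fold change 0.23, edgeR adjusted p = 0.131); its part in the CIITA counts was not tested.

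CD74, the invariant chain and MIF receptor (ENSG00000019582.14, chromosome 5, 150401637 to 150412929, minus strand), was the most abundant gene of the set. Replicates 1 to 3 of shControl gave 1590, 2218 and 2034 counts, and those of shCK5-22 gave 3403, 3094 and 2849. Scaled for library size these are 33.1, 34.0 and 32.2 CPM against 52.2, 51.7 and 53.9 CPM, so libraries within a group were close together and the groups did not overlap. Among all genes tested, 22.8% were higher and 22.3% lower without overlap. The mean rose 1.59-fold, from 33.1 ± 0.877 to 52.6 ± 1.14 CPM (SD, n = 3 each; log2 fold change 0.67, 95% interval 0.57 to 0.76, edgeR adjusted p = 1.63e-10). Leaving out shCK5-22 replicate 1 gave 0.67, and leaving out each library in turn gave 0.65 to 0.69. No 50-base window of its transcripts occurs in another gene's transcripts, and no annotated gene overlaps it.

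The chains of HLA-DR, usually the most abundant class II dimer, were near the limit of detection. HLA-DRA, the nearly monomorphic alpha chain (ENSG00000204287.13, chromosome 6, 32439842 to 32445046, plus strand), had the counts 8, 18 and 14 in the order of the replicates in both groups, or 0.166, 0.276 and 0.222 CPM against 0.123, 0.301 and 0.265 CPM. The groups overlapped and the log2 fold change was 0.02 (95% interval -1.01 to 1.04, edgeR adjusted p = 0.984). That interval includes both 0 and the log2 fold change of CD74 (0.67), so at this depth a difference of that size is not excluded.

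HLA-DRB1, the polymorphic beta chain that pairs with HLA-DRA (ENSG00000196126.11, chromosome 6, 32578769 to 32589848, minus strand), had 5, 18 and 7 counts in shControl and 33, 17 and 6 counts in shCK5-22, in replicate order. Its level was 0.164 ± 0.0973 CPM and 0.301 ± 0.197 CPM (SD, n = 3 each), and the 33 counts of shCK5-22 replicate 1 lay well above every control library. The log2 fold change of 0.87 did not pass (95% interval -0.29 to 2.02, edgeR adjusted p = 0.255) and was 0.27 without that library. Of its 50-base windows, 8.64% occur in HLA-DRB5, which had 7 counts over the shControl and 5 over the shCK5-22 libraries, so the split between these genes is uncertain. HLA genes are also highly polymorphic, and how far the alleles of BT20 match the reference used for counting was not tested.

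The HLA-DP chains also had few counts. HLA-DPA1, the alpha chain (ENSG00000231389.7, chromosome 6, 33064569 to 33080775, minus strand), had 4, 8 and 18 counts in shControl and 10, 8 and 6 in shCK5-22, means of 0.164 and 0.134 CPM with overlapping groups. The log2 ratio of these means was -0.29, and 0.38 without shControl replicate 3, the library with 18 counts. HLA-DPB1, its beta chain partner (ENSG00000223865.10, chromosome 6, 33075926 to 33087201, plus strand), had 2, 4 and 0 counts in shControl and 6, 2 and 2 in shCK5-22. The count of 0 in shControl replicate 3 allows up to 3 counts, or 0.0476 CPM, by counting error alone, if counts are independent. The even counts described above leave that uncertain, and the limit would be higher if counts came in pairs. Both genes lie below the filter, their annotated exons share 96 bases on opposite strands, and no fold is given for HLA-DPB1, whose counts are near that limit in both groups. Fitted without the filter, neither passed (edgeR adjusted p = 0.822 for HLA-DPA1 and 0.815 for HLA-DPB1).

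Summed over HLA-DRA, HLA-DRB1, HLA-DPA1 and HLA-DPB1, the counts were 19, 48 and 39 in shControl and 57, 45 and 28 in shCK5-22, in replicate order. In the same libraries CD74 had between 46.2 and 83.7 counts for each of these in shControl and between 59.7 and 102 in shCK5-22. The invariant chain thus had many more counts than the chains it accompanies in every library, and the ranges of that ratio overlapped between the groups.

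Of the peptide-loading genes, HLA-DMA fell and HLA-DMB had too few counts to be tested with the filter. HLA-DMA, the alpha chain of HLA-DM (ENSG00000204257.14, chromosome 6, 32948613 to 32969094, minus strand), gave 142, 161 and 178 counts in the control libraries and 136, 100 and 103 in the knockdown libraries, in replicate order. These are 2.95, 2.47 and 2.82 CPM against 2.08, 1.67 and 1.95 CPM, with every knockdown library below every control library. HLA-DMA thus fell 1.44-fold between means of 2.75 ± 0.251 and 1.90 ± 0.210 CPM (SD, n = 3 per group; log2 fold change -0.53, 95% interval -0.86 to -0.20, edgeR adjusted p = 0.0131). Without shCK5-22 replicate 1 the log2 fold change was -0.60 (edgeR adjusted p = 0.00986). The call was lost without shControl replicate 1 (0.0532), shControl replicate 3 (0.0526) or shCK5-22 replicate 2 (0.0601), the adjusted p ranging from 0.00951 to 0.0601 over the alternatives. BRD2, an abundant gene on the opposite strand that shares 55 bases of exon with HLA-DMA, moved in the other direction, from 373 to 408 CPM.

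HLA-DMB, the beta chain of HLA-DM (ENSG00000242574.8, chromosome 6, 32934629 to 32941070, minus strand), had 6, 10 and 12 counts in shControl and 2, 4 and 2 in shCK5-22, in replicate order. All 3 knockdown libraries lay below all 3 control libraries, at means of 0.0451 ± 0.0192 and 0.156 ± 0.0328 CPM (SD, n = 3 each), but the gene is below the filter and rests on 8 and 28 counts in all. Fitted without the filter its log2 fold change was -1.75 and did not pass (edgeR adjusted p = 0.185). In GENCODE release 29 both HLA-DM genes share exon with the protein-coding gene AL645941.2, 174 bases for HLA-DMA and 438 for HLA-DMB, and how such reads were counted is not given.

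**Figure D2:**
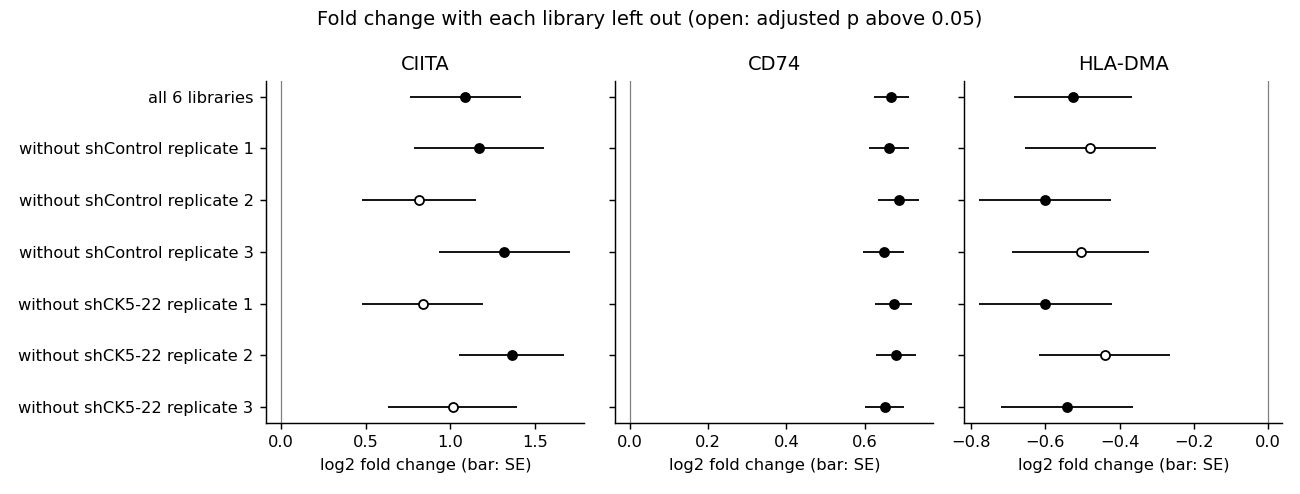
Log2 fold change of shCK5-22 against shControl (horizontal axes; bars, SE) for CIITA, CD74 and HLA-DMA with all 6 libraries and with each library left out; open points have an adjusted p above 0.05. CD74 stays between 0.65 and 0.69, CIITA ranges from 0.81 to 1.36 and HLA-DMA from -0.60 to -0.44, and the last 2 genes each have 3 open points.

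Levels can be compared between genes only per length, here as CPM per kilobase of merged GENCODE exon. In shControl CD74 stood first at 10.4 ± 0.276 CPM per kilobase, followed by HLA-DMA at 1.08 ± 0.0992 (SD, n = 3 each), and the ranges of these genes did not overlap each other or the next. HLA-DOB, the beta chain of the HLA-DM inhibitor HLA-DO, and HLA-DQB1, a beta chain of the HLA-DQ dimer, came next at 0.502 ± 0.0129 and 0.498 ± 0.0832 and overlapped. HLA-DRA (0.173 ± 0.0428) and HLA-DRB1 (0.133 ± 0.0792) also overlapped with each other and lay below that pair. HLA-DMB (0.0335), HLA-DPA1 (0.0285), CIITA (0.0241) and HLA-DPB1 (0.0123) formed a low group whose neighbours overlapped. Merged exon is long for CIITA, at 20.8 kilobases, which lowers its value on this scale. It is also long for HLA-DPA1 (5.75 kilobases), HLA-DQB1 (4.9) and HLA-DMB (4.66), against 1.28 for HLA-DRA and 1.23 for HLA-DRB1. The order therefore depends in part on these annotated lengths. Per kilobase, CD74 was 49.5 to 79.9 times HLA-DRA in the shControl libraries and 69.1 to 171 times in shCK5-22. Its ratio to HLA-DMA was 8.91 to 11.0 in shControl and 19.9 to 24.6 in shCK5-22. That separation follows from CD74 being higher and HLA-DMA lower in every knockdown library, and is not a further result.

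**Figure D3:**
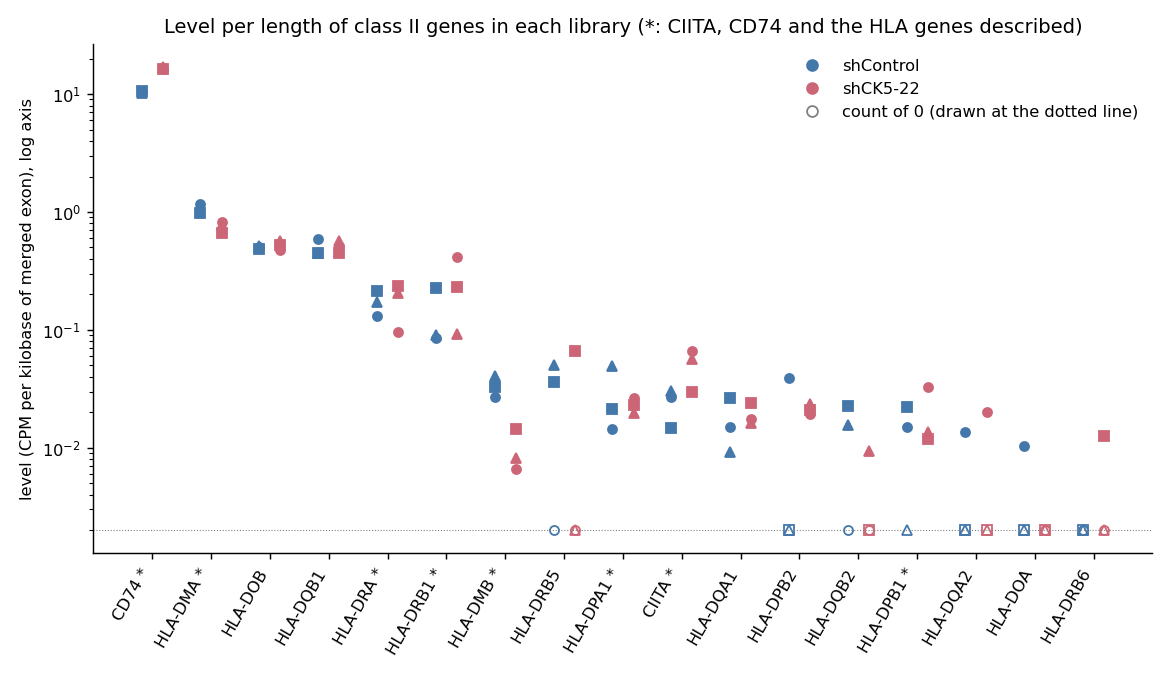
Level per length (CPM per kilobase of merged exon, log axis) of the class II genes with at least 1 count, in each shControl (blue) and shCK5-22 (red) library; circles, squares and triangles are replicates 1, 2 and 3, open symbols on the dotted line are counts of 0, and asterisks mark CIITA, CD74 and the 6 HLA genes described. CD74 lies about a decade above HLA-DMA, and HLA-DRA and HLA-DRB1 lie below HLA-DOB and HLA-DQB1 in shControl.

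Of 12 other class II genes and pseudogenes in the list, 10 were rows of the table and 2 were tested, with 0 called in edgeR's test and 0 at an unadjusted p under 0.05. HLA-DQB1 had 140, 143 and 140 counts in shControl and 166, 132 and 147 in shCK5-22 (log2 fold change 0.05, 95% interval -0.29 to 0.39, edgeR adjusted p = 0.86). HLA-DOB had 49, 64 and 65 counts against 62, 63 and 61 (0.06, interval -0.40 to 0.51, edgeR adjusted p = 0.879), and 29.7% of its exon is shared with AL669918.1. HLA-DQA1, the alpha chain of HLA-DQ, had 21 and 24 counts over the groups. HLA-DRB5, HLA-DQA2, HLA-DQB2, HLA-DRB6, HLA-DOA and HLA-DPB2 had at most 5 counts in any library, and HLA-DPA2 had 0 in each. Between the HLA-DM alpha chain, which fell, and the HLA-DO beta chain, whose interval spans 0, the difference itself was not tested.

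The promoter-binding factors that recruit CIITA and the coactivators that work with it were all above 1 CPM. Of 12 tested, 5 rose and 0 fell, with a median log2 fold change of 0.08 against -0.0057 over all genes. Without shCK5-22 replicate 1 these counts were 4 and 1. By the same rule 17.4% of all genes tested were higher and 16.8% lower. With so few genes in this or any other list, nothing about a list as a set is read from its counts. KAT2B, an acetyltransferase that modifies CIITA, rose by 0.59 from 15.8 ± 0.420 to 23.7 ± 1.58 CPM (SD, n = 3 each; edgeR adjusted p = 2.65e-07). RFX5, the DNA-binding subunit of the RFX complex, rose by 0.26 from 37.1 to 44.3 CPM, and its partners RFXAP and RFXANK did not pass, with 5.39 and 27.7 CPM in the control and 5.75 and 25.9 CPM in the knockdown libraries. The coactivator gene CREBBP rose by 0.14 and the CREB-family factor ATF1 by 0.16 (edgeR adjusted p = 0.0294, up to 0.092 over the alternatives; the call was lost under scaling by library size alone and in 5 of the 6 fits that left a library out, all but that without shCK5-22 replicate 2).

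Genes of the interferon gamma route to CIITA moved in both directions. Of 9 tested, 6 rose and 2 fell (median 0.17), and these counts were also 6 and 2 without shCK5-22 replicate 1. IFNGR2, a receptor chain, rose by 0.55 from 9.45 to 13.9 CPM, the kinase gene JAK1 by 0.21 from 185 to 213 CPM, and PTPN2, a phosphatase that restrains JAK kinases, by 0.22 from 39.9 to 46.5 CPM. USF1, an E-box factor that binds a CIITA promoter, fell by 0.19 from 50.9 to 44.6 CPM and was named after its values were seen. The kinase gene JAK2, at 8.74 and 9.02 CPM, did not pass.

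Several genes needed for this account were listed at 0 in every library, among them IRF1, SOCS1, the lysosomal reductase gene IFI30, the protease gene CTSD and the CD74 ligand gene MIF. Since MIF and CTSD are used by nearly every cell, these zeros are not read as absence. Of the 11 list genes at 0, IRF1, CTSD, IFI30, MIF and the macrophage gene CD68 share 22.0% to 85.8% of their exon with other annotated genes, and the other 6 (HLA-DPA2, SOCS1, PRDM1, MS4A1, AIF1 and TYROBP) share 0%. The cause was not tested, and the genes are not described further.

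Among 8 tested chromatin and transcription factors known to restrain CIITA or class II genes, 3 rose and 2 fell (median 0.02; 3 and 1 without shCK5-22 replicate 1). The Polycomb subunit gene SUZ12 rose by 0.24, from 105 to 124 CPM, the maintenance methyltransferase gene DNMT1 by 0.20, from 478 to 547 CPM, and the Polycomb methyltransferase gene EZH2 by 0.14, from 99.3 to 110 CPM. MYCL fell by 0.76, from 1.73 to 1.02 CPM (edgeR adjusted p = 0.00964, and 0.0565 without shControl replicate 2, the highest value over the alternatives).

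Genes of endosomal processing, proteases with the protease inhibitor gene CST3, moved in both directions. Of 10 tested in this list, CST3 among those that rose, 5 rose and 3 fell (median 0.13), the same numbers as without shCK5-22 replicate 1. CTSS, the cathepsin that makes the last cuts of CD74 in antigen-presenting cells, rose by 0.57 from 18.1 ± 1.28 to 26.9 ± 1.54 CPM (SD, n = 3 each; edgeR adjusted p = 4.82e-07). SPPL2A, the intramembrane protease that removes the remaining CD74 fragment, rose by 0.25 from 29.6 to 35.0 CPM. CTSV, a cathepsin that serves this role in thymic epithelium, fell by 0.75 from 30.1 to 17.9 CPM, and CTSH fell by 0.77 from 40.4 to 23.7 CPM. LGMN, an asparagine endopeptidase, did not pass, with 54.0 and 55.1 CPM.

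CD74 signals with CD44 as a co-receptor. CD44 fell by 0.08, from 1283 ± 18.6 to 1217 ± 22.7 CPM (SD, n = 3 each; edgeR adjusted p = 0.0343, up to 0.171 when a library was left out), and it was the 1 gene called among 4 tested ligands and co-receptors; without shCK5-22 replicate 1, 2 of them fell. DDT, the MIF homologue, stood at 29.5 and 27.0 CPM, and the chemokine receptor gene CXCR4 had 14 and 12 counts over the groups. Among costimulation and adhesion genes 1 of 6 tested rose and 2 fell (median 0.13), also without shCK5-22 replicate 1. ICAM1, the adhesion ligand of T-cell LFA-1, rose by 0.82 from 24.1 to 42.7 CPM, while CD40 fell by 0.35 and CD58 by 0.30. CD80 and CD86, the main CD28 ligands, had at most 14 counts over any group. NLRC5, the class I counterpart of CIITA, stood at 32.5 and 32.9 CPM (log2 fold change 0.02, edgeR adjusted p = 0.805), and NOD1 fell by 0.20 (edgeR adjusted p = 0.0497, between 0.0305 and 0.172 over the alternatives), and was called alone among 5 NLR relatives tested; without shCK5-22 replicate 1, 0 were called.

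**Figure D4:**
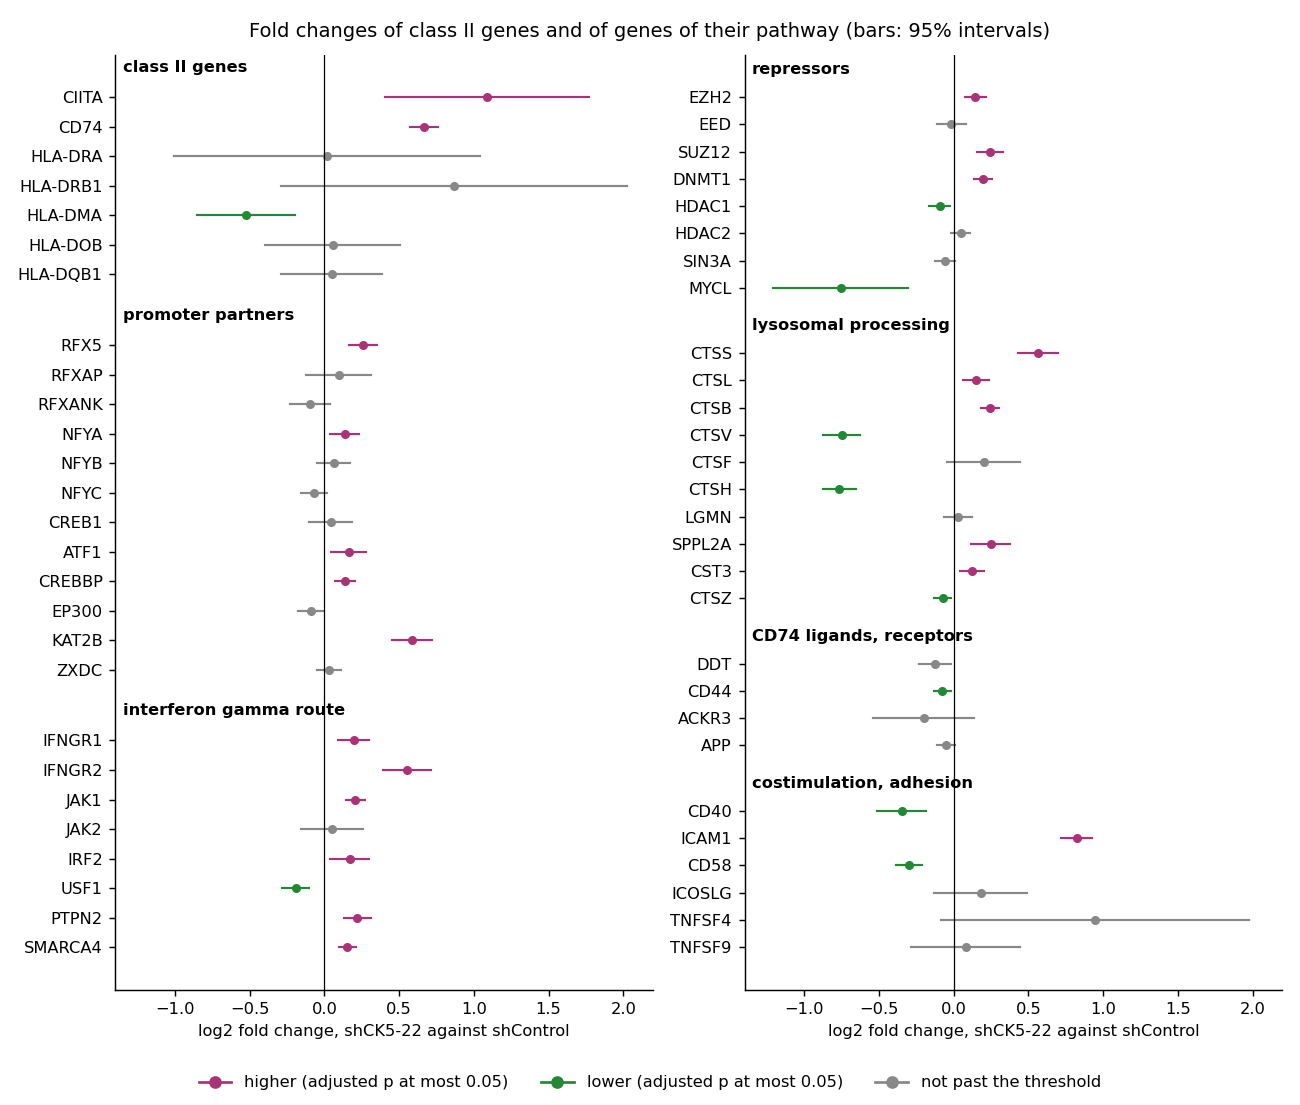
Log2 fold change of shCK5-22 against shControl (horizontal axis) with 95% intervals for tested class II genes and for pathway genes tested, by list; colour shows the direction of genes past an adjusted p of 0.05. HLA-DRA and HLA-DRB1 have the widest intervals of the class II genes, and the endosomal protease genes CTSS and CTSH lie on opposite sides of 0.

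Class II genes are markers of B cells, dendritic cells and macrophages, so leukocyte genes were read in the same libraries. Of 20 such markers, 17 were below 1 CPM in every library, including 4 listed at 0 (MS4A1, CD68, AIF1 and TYROBP) that are not read as absence, and the list's summed level was 7.53 to 7.74 CPM in shControl and 9.04 to 11.7 CPM in shCK5-22. Of 5 tested, 2 rose: LAPTM5, a lysosomal protein of blood cells, from 0.669 ± 0.241 to 2.13 ± 0.384 CPM, and ITGAM, an integrin of myeloid cells, from 0.928 ± 0.211 to 2.22 ± 0.336 CPM (SD, n = 3 each). The macrophage gene CSF1R, the most abundant of the list, stood at 4.65 CPM in shControl and 4.32 CPM in shCK5-22. It did not pass (log2 fold change -0.11, edgeR adjusted p = 0.621), nor did CD14, at 0.581 and 0.726 CPM. The defining gene PTPRC (CD45) was at 0.333 to 0.541 CPM in shControl and 0.215 to 0.265 CPM in shCK5-22. The B-cell gene CD79A, below the filter, had 2, 4 and 3 counts in shControl and 14, 4 and 4 in shCK5-22, in replicate order. Also below the filter, FLT3 had 11 counts over the shControl and 26 over the shCK5-22 libraries, FCER1G 19 and 12, and LYZ 10 and 4. CD74 and CIITA were thus higher in libraries where the pan-leukocyte gene PTPRC was lower and did not pass (edgeR adjusted p = 0.178), while LAPTM5 and ITGAM were higher; their part in the result was not tested.

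Genes with the most similar pattern were taken as those with the smallest root mean square difference of centred log2 CPM over the 6 libraries. For CD74, among 10455 genes with a mean of at least 5 CPM, these were TSPAN4 (0.03), FCMR (0.0319), ETS1 (0.0346), ANTXR2 (0.0378) and FMNL1 (0.038). For CIITA, among 15031 genes with a mean of at least 0.5 CPM, they were CAMK4 (0.189), LINC01435 (0.195), CALB1 (0.222), MYH15 (0.224) and TGFBR3 (0.225). On that scale the other genes of the set differed from CD74 by 0.341 (HLA-DPB1) to 0.762 (HLA-DMB), with CIITA at 0.439 and HLA-DMA at 0.601. Their means lie below the minimum of 5 CPM, so they were not among the genes ranked for CD74. The 5 genes named were picked as the closest, so these distances are not compared with theirs.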

How the data were processed

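Per the labels, a miRNeasy kit with DNase gave total RNA for Illumina libraries. The authors deposited a table of whole-number read counts per gene symbol; the submitters' processing notes name cutadapt, STAR, SAMtools and Cufflinks and the build GRCh38. How reads were counted is known only in part: the tool, gene models, strand setting and treatment of shared reads are details not given in the sources used here. Of 56505 rows, 27 held a calendar date in place of a symbol (0.167% to 0.175% of a library's counts) and were left out. Counts were fitted with edgeR 4.0.16 (R 4.3.3, TMM, filterByExpr, robust quasi-likelihood). The same fit was also run on simulated counts, drawn with means and dispersions taken from these data. A floor of 3 counts corresponds to 0.046 to 0.0624 CPM, takes counts as independent and, like the counts, covers counting error only. The interval of a fold change uses its SE, derived from the F statistic.

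The alternatives were other normalizations, filters and thresholds, DESeq2 1.42.0, limma-voom (limma 3.58.1), a replicate block, a prior count of 2, each library left out and, chosen after seeing the data, counts divided by 2. The members and gene lists were chosen with earlier results of these data known. Every member is described; from each pathway list the up to 4 called genes with the largest change are named, and others are given as further values; some list genes are counted in their lists but not reported here by name. Coordinates, exon lengths and overlaps come from GENCODE release 29.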

Additional observations from a re-analysis of the deposited data

How the results depend on the processing

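The number of the 8 genes past the threshold was 3 (2 higher, 1 lower) and stayed at 3 with the other normalizations, no filter, DESeq2, limma-voom and counts divided by 2. At an adjusted p of 0.01 it was 1, with 1 higher and 0 lower by edgeR (HLA-DMA had an unadjusted p of 0.00336), and with at least 1 CPM in 3 libraries, which removes CIITA, 1 was higher. Leaving out each library gave 2 in total each time, with 1 to 2 higher and 0 to 1 lower. For HLA-DRA the sign of its log2 fold change turned with limma-voom (-0.0716) and when a library was left out (-0.24 to 0.34): the fit lacking shControl replicate 1 gave -0.14, that lacking shCK5-22 replicate 2 gave -0.24 and that lacking shCK5-22 replicate 3 gave -0.09; the cause was not tested, and 0 of these values passed. CD74 kept its call in all 16 alternatives. Over all genes, 6153 passed, 4910 to 6185 with a library left out and 5512 with DESeq2. The labels share replicate numbers, but same-numbered libraries did not deviate together (correlations 0.0164, 0.0517 and -0.00678), and not every library correlated best with its own number; with the replicate block 6743 genes and 3 of the 8 passed, and CIITA, CD74 and HLA-DMA stayed past the threshold (0.00348, 5.92e-11 and 0.00951). Another scaling moved the median of all genes by at most 0.0139 on the log2 scale. Depth limits HLA-DRA, HLA-DRB1, HLA-DPA1, HLA-DPB1 and HLA-DMB, with 0 to 33 counts per library.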

Other observations

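HLA-DRA had the same 3 counts, in replicate order, in both groups. Among all gene symbols, 2 had this property with counts of at least 4, so the 2 groups' columns are not copies of each other.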
